A study of Mus musculus with 48 samples.

Results

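The genes described are osteopontin (Spp1) and 5 genes whose products act with it or were high in the same old microglia: Fam20c, Gpnmb, Pianp, Cd44 and Igf1. They are 6 of the 35870 genes in the deposited table, and each was taken by its symbol, with no cut on its level. They had been named with earlier results of these data known, from the high levels of several of them in old microglia against young, so their differences from young microglia are given as a description and carry no test. RNA was sequenced from sorted brain microglia and from whole spinal cord of C57BL/6 wild type male mice, 48 libraries in all, with 8 in each of 6 groups. In both tissues the old repopulated mice were 23 months old and had 5 days of a Csf1r inhibitor and then 7 days to recover, old mice were 23 months old and had vehicle, and young mice were 3 months old and had vehicle. Csf1r is the receptor microglia need to survive, so that blocking it empties the brain of most microglia and removing the block lets them grow back. Microglia were gated as Cd11b and Cd45 positive cells of the dissociated brain, a gate that other myeloid cells can also enter, while the cord was frozen whole. Whether each library stands for its own mouse is not stated in the labels. The p-values therefore measure only the spread between these libraries, which may be technical.

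Osteopontin is a secreted phosphoprotein of bone matrix that macrophages also make, and it binds integrins and the hyaluronan receptor Cd44. It is phosphorylated in the Golgi by the kinase Fam20c and cut by matrix metalloproteinases and thrombin. In the brain, Spp1, Gpnmb and Igf1 are known from microglia of early white matter, of demyelinated lesions and of plaques, and in the mouse spinal cord Spp1 is also a marker of motor neurons. Gpnmb is a transmembrane glycoprotein of melanocytes, osteoclasts and lipid-laden macrophages, shed by Adam10, with Cd44 and syndecan 4 as receptors. Pianp is a neuronal membrane protein that binds the inhibitory myeloid receptor Pilra and GABA-B receptors, and Igf1 is a growth factor for neurons and myelinating glia.

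On GRCm38, in the GENCODE M21 annotation, all 6 are protein-coding genes: Spp1 lies at chr5:104435118-104441050 and Fam20c at chr5:138754514-138810077, both on the plus strand. Gpnmb lies at chr6:49036546-49070929, Pianp at chr6:124996694-125003096 and Igf1 at chr10:87858265-87937042, all on the plus strand, and Cd44 lies at chr2:102811141-102901665 on the minus strand. All 6 symbols matched a RefSeq promoter window of 300 bases (250 before and 50 from the start site on, RefSeq annotation of GRCm38.p6). Spp1 has 2 such windows and Pianp 3. The windows of Spp1 (the 1 of 2 that holds motif matches, chr5:104434861-104435160, plus strand) and Gpnmb (chr6:49036268-49036567, plus strand) are shown because these genes had the largest age differences in both tissues. Capitals mark motif matches.
Spp1: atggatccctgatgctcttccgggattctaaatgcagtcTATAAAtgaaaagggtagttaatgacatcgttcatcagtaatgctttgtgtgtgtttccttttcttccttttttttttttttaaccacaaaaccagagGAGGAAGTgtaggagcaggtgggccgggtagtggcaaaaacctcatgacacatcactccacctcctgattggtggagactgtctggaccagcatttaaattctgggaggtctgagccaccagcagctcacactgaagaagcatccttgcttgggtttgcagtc
Gpnmb: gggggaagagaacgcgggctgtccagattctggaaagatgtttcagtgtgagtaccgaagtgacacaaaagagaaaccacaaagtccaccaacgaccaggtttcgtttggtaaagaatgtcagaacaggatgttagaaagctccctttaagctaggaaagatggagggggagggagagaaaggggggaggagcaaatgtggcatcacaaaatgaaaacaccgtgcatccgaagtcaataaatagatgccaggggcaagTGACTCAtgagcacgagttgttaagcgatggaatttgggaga
In the Spp1 window the capitals are TATAAA, starting 211 bases before the start site, and the PU.1 core GAGGAAGT, starting 113 bases before it. In the Gpnmb window they are the AP-1 site TGACTCA, a match to TGANTCA, 8 bases after the start site. The motifs were chosen after the windows had been read, both strands were searched, and no motif contains another. Over 32851 windows of the same length, TGANTCA was found in 7.81%, CACGTG in 7.15%, the M-box TCATGTG in 3.77%, GAGGAAGT in 3.2% and TATAAA in 13.6%. The Igf1 window also held an AP-1 match (TGAATCA) and 1 of the 3 Pianp windows a PU.1 core, while Fam20c and Cd44 had no match to these letters. Neither CACGTG nor the M-box, the letters that Mitf and Tfeb are known to bind, was found in the windows of Gpnmb.

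Total counts per library were between 23808223 and 31414974 in old repopulated, 18741936 and 27755121 in old and 28373152 and 34496308 in young microglia. In cord they were between 15909868 and 33004806 in old repopulated, 22802459 and 31075737 in old and 23756093 and 32172147 in young libraries. Levels within a tissue are CPM, read counts divided by the TMM-scaled library size, and levels set side by side between genes or tissues are deposited TPM, which are per gene length. A gene was called where edgeR's quasi-likelihood test gave a Benjamini-Hochberg adjusted p under 0.05 over all genes tested in its tissue (14382 in microglia, 18271 in cord), and all 6 genes passed the filter on low counts in both tissues. The 10 microglial markers, led by Csf1r, summed to a median of 46500 CPM in old repopulated, 44410 CPM in old and 62500 CPM in young sorted cells. The 8 Hox genes of the spinal cord summed to at most 0.605 CPM in any library there. In cord the microglial sum was 463, 393 and 282 CPM in old repopulated, old and young libraries. Old repopulated cord replicate 6 stood apart, with an oligodendrocyte marker sum of 30420 CPM against at most 19720 CPM in the other old repopulated libraries, and cord results that rest on it are also given without it. In bulk RNA, fewer cells of a type and less RNA per cell cannot be told apart.

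In sorted microglia the old and the old repopulated libraries held far more of all 6 transcripts than the young ones. Spp1 had a lowest, median and highest level of 185, 278 and 352 CPM in old repopulated, 297.5, 359.5 and 467 CPM in old and 2.05, 6.12 and 8.09 CPM in young microglia. Its fitted ratio was 48.6-fold for old repopulated over young and 63.4-fold for old over young. Every old and old repopulated library lay far above every young one, and the old repopulated and old ranges overlapped.

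**Figure D1:**
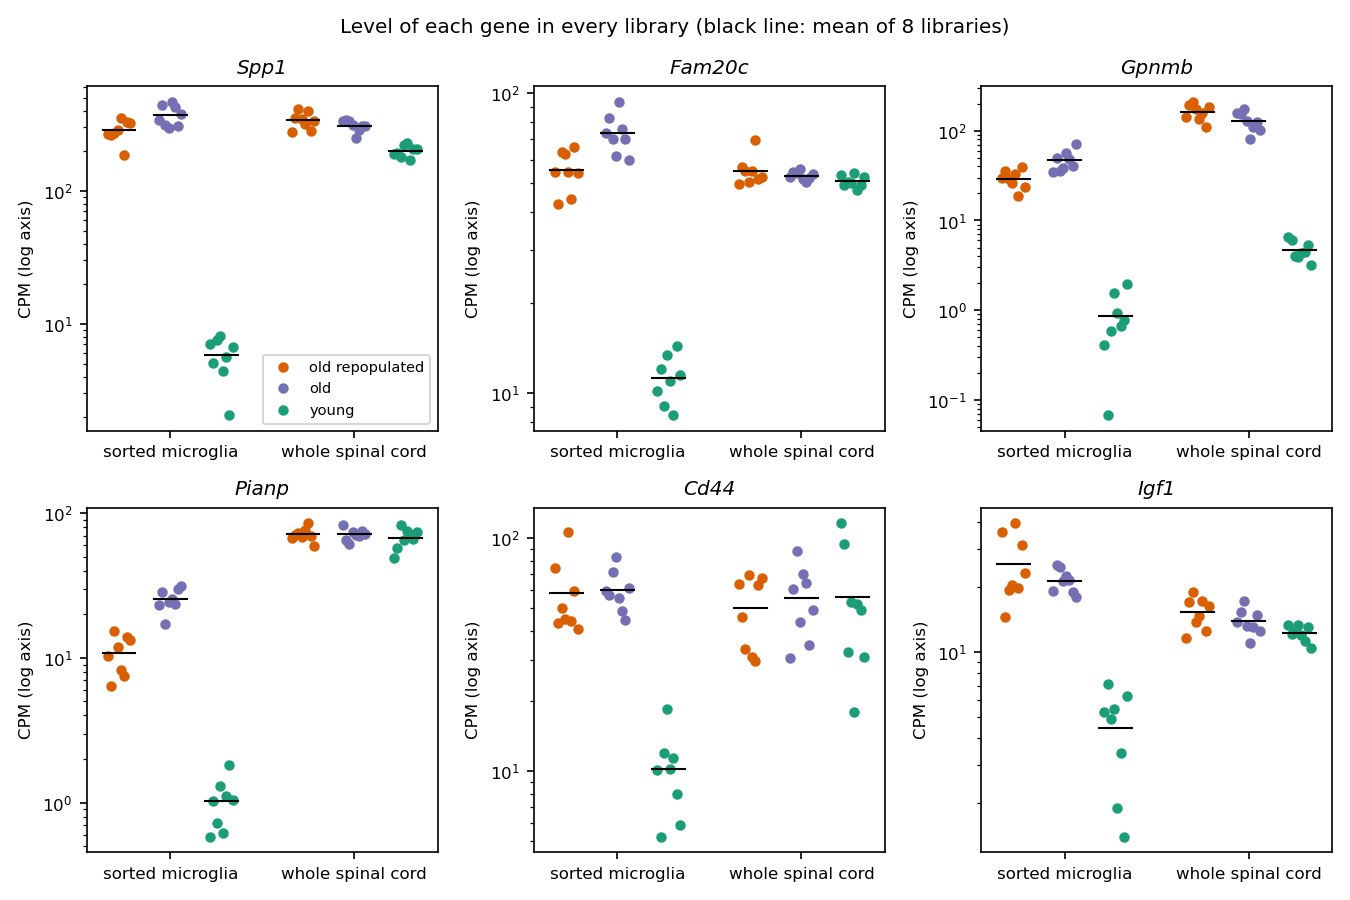
CPM (log axis) of Spp1, Fam20c, Gpnmb, Pianp, Cd44 and Igf1 in each of the 48 libraries, with old repopulated, old and young groups from left to right in each tissue and a black line at the mean of 8. In microglia the young libraries of all 6 genes lie below the other groups, while in cord a separate young group is seen for Spp1 and Gpnmb alone.

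Gpnmb ran from 18.8 to 39.0 CPM (median 29.3) in old repopulated, from 35.0 to 70.4 CPM (median 44.2) in old and from 0.0680 to 1.95 CPM (median 0.729) in young microglia. Young libraries held between 2 and 62 Gpnmb reads each, so the ratios of 33.2-fold for old repopulated over young and 53.1-fold for old over young rest on few young reads. On log2(TPM + 1), where low levels give smaller differences, its log2 difference was 3.38 for old repopulated over young and 4.26 for old over young, beside fitted log2 values of 5.06 and 5.73. Pianp lay between 6.37 and 15.4 CPM (median 11.2) in old repopulated, between 17.3 and 31.4 CPM (median 24.9) in old and between 0.581 and 1.83 CPM (median 1.03) in young microglia. For Pianp the 3 groups did not overlap, and its ratio was 10.6-fold for old repopulated over young and 24.8-fold for old over young. On log2(TPM + 1) the log2 difference of Pianp was 2.17 and 3.56, beside fitted log2 values of 3.41 and 4.63. The median of all genes on that scale was -0.28 for old repopulated over young microglia, beside a fitted -0.06.

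The osteopontin kinase Fam20c had 42.8 to 66.1 CPM (median 54.5) in old repopulated, 59.9 to 93.6 CPM (median 71.9) in old and 8.42 to 14.3 CPM (median 11.2) in young microglia. Its ratio was 4.93-fold for old repopulated over young and 6.55-fold for old over young. Cd44, the receptor, had 40.7 to 107 CPM (median 47.5) in old repopulated, 44.7 to 83.5 CPM (median 58.1) in old and 5.24 to 18.5 CPM (median 10.2) in young microglia. Its ratio was 5.69-fold for old repopulated over young and 5.90-fold for old over young. Igf1 had 14.6 to 39.4 CPM (median 21.7) in old repopulated, 17.9 to 25.2 CPM (median 21.4) in old and 1.40 to 7.10 CPM (median 5.09) in young microglia. Its ratio was 5.69-fold for old repopulated over young and 4.78-fold for old over young. On log2(TPM + 1) the log2 differences for old repopulated over young were 1.84 for Fam20c (1.97 on log2(TPM + 0.1)), 1.96 for Cd44 and 1.57 for Igf1, beside fitted values of 2.30, 2.51 and 2.51, and for Igf1 in old over young 1.62 beside 2.26. For old repopulated over young the median of all genes also moved, to -0.28 on log2(TPM + 1) and -0.41 on log2(TPM + 0.1), beside a fitted -0.06. For each of the 6 genes the old repopulated and old libraries lay above all young ones. Over all genes tested, 7.2% had old repopulated libraries wholly above young ones and 5.86% wholly below, and 4.12% had old libraries wholly above young ones and 3.05% wholly below. Nothing is read from the count of 6, because these differences chose the genes.

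Markers of other myeloid cells also differed between these groups, in directions that were not the same for every list. The 11 neutrophil markers, led by S100a9, summed to between 803 and 3666 CPM in old repopulated, 1984 and 8705 CPM in old and 209.9 and 1006 CPM in young microglia, and 10 of 11 were called higher in old than in young. The 9 monocyte markers, led by Fn1, summed to 275 to 697 CPM in old repopulated, 653 to 1461 CPM in old and 123 to 291 CPM in young libraries. Border-associated macrophage markers, led by Stab1, summed to 771.5 to 1071, 987 to 1742 and 1077 to 1677 CPM in old repopulated, old and young libraries. Of these 10 markers, 1 was called higher and 9 lower in old repopulated over young, and 6 higher and 1 lower in old over young. Osteoclast markers, led by Mmp9, summed to 46.2 to 351 CPM in old repopulated, 93.3 to 292 CPM in old and 18.7 to 42.0 CPM in young libraries, with Calcr at 0 in all 3 groups. Mmp9 alone, which neutrophils also make, had 36.2 to 113, 89.2 to 286 and 16.5 to 40.8 CPM in these groups. The highest sum was that of old repopulated replicate 5, where Acp5 alone had 169 CPM. Of the 5 osteoclast markers tested, 4 were called higher in old repopulated over young, 2 higher in old over young, and 2 higher and 1 lower in old repopulated over old. Over all genes tested, 16.1% were called higher and 16.5% lower in old repopulated over young. The shares were 11% and 10.7% in old over young, and 9.05% and 7.2% in old repopulated over old. The part of these cells in the levels of the 6 genes was not tested. Over 54 relations between a gene and a marker sum in the 8 libraries of a microglia group, exact permutation tests gave no Pearson r with an adjusted p under 0.05 and 1 Spearman rho. That rho was for Igf1 and the border-associated macrophage sum in young microglia (rho = 0.98, r = 0.81, adjusted exact p = 0.0214 for rho, r = 0.87 without the 2 libraries farthest from the median). The lowest adjusted p for r was that of Cd44 and the monocyte sum in old microglia (r = 0.90, rho = 0.83, adjusted exact p = 0.135, r = 0.53 without the 2 libraries farthest from the median).

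Repopulation was tested directly in microglia by setting old repopulated against old libraries, a comparison that shares the old libraries with the one that chose the genes. Pianp, Fam20c and Gpnmb were lower after repopulation, and Spp1, Cd44 and Igf1 were not called. Over all genes tested 9.05% were called higher, 7.2% lower and 16.2% in either direction, and 2.09% had old repopulated libraries wholly above old ones. Pianp averaged 10.9 ± 3.29 CPM in old repopulated and 25.4 ± 4.49 CPM in old microglia (SD, n = 8 libraries each), a log2 fold change of -1.22 (SE 0.20, edgeR adjusted p = 3.46e-05). The highest old repopulated library lay below the lowest old one, as for 0.966% of genes. Fam20c averaged 55.3 ± 8.61 CPM in old repopulated and 73.5 ± 10.9 CPM in old microglia, a log2 fold change of -0.41 (SE 0.11, edgeR adjusted p = 0.00949), with overlapping ranges. Gpnmb averaged 29.3 ± 6.63 CPM in old repopulated and 46.7 ± 12.3 CPM in old microglia, with a log2 fold change of -0.68 (SE 0.23, edgeR adjusted p = 0.0456). This call was lost when any of 11 of the 16 libraries was left out, and the change lay between -0.75 and -0.56 in all 16. Without old replicates 2 and 7, which stood apart in earlier work on these data, Pianp was at -1.14 (edgeR adjusted p = 0.000358), Fam20c at -0.38 (edgeR adjusted p = 0.0349) and Gpnmb at -0.68 (edgeR adjusted p = 0.0762).

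Spp1 averaged 285 ± 51.7 CPM in old repopulated and 371 ± 66.3 CPM in old microglia, a log2 fold change of -0.38 (SE 0.15, edgeR adjusted p = 0.0929). It passed the threshold with total-count scaling (-0.55, edgeR adjusted p = 0.0121), on log2(TPM + 1) (-0.64, limma adjusted p = 0.0107) and with limma-voom with quality weights (-0.45, adjusted p = 0.00555). Total-count scaling and log2(TPM + 1) move the median of all genes to -0.21. Relative to that median Spp1 was at -0.34 and -0.42, Fam20c at -0.37 and -0.43, Gpnmb at -0.64 and -0.66 and Pianp at -1.18 on both. For Cd44 the log2 fold change was -0.05 (SE 0.20, edgeR adjusted p = 0.901), and for Igf1 it was 0.25 (SE 0.23, edgeR adjusted p = 0.516). The highest Cd44 library of this tissue was old repopulated replicate 5, at 107 CPM. In the same comparison 9 of 11 neutrophil markers, 6 of 9 monocyte markers and 9 of 10 border-associated macrophage markers were called lower, beside 7.2% of all genes. The part of these cells in the falls of Pianp, Fam20c and Gpnmb was not tested.

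**Figure D2:**
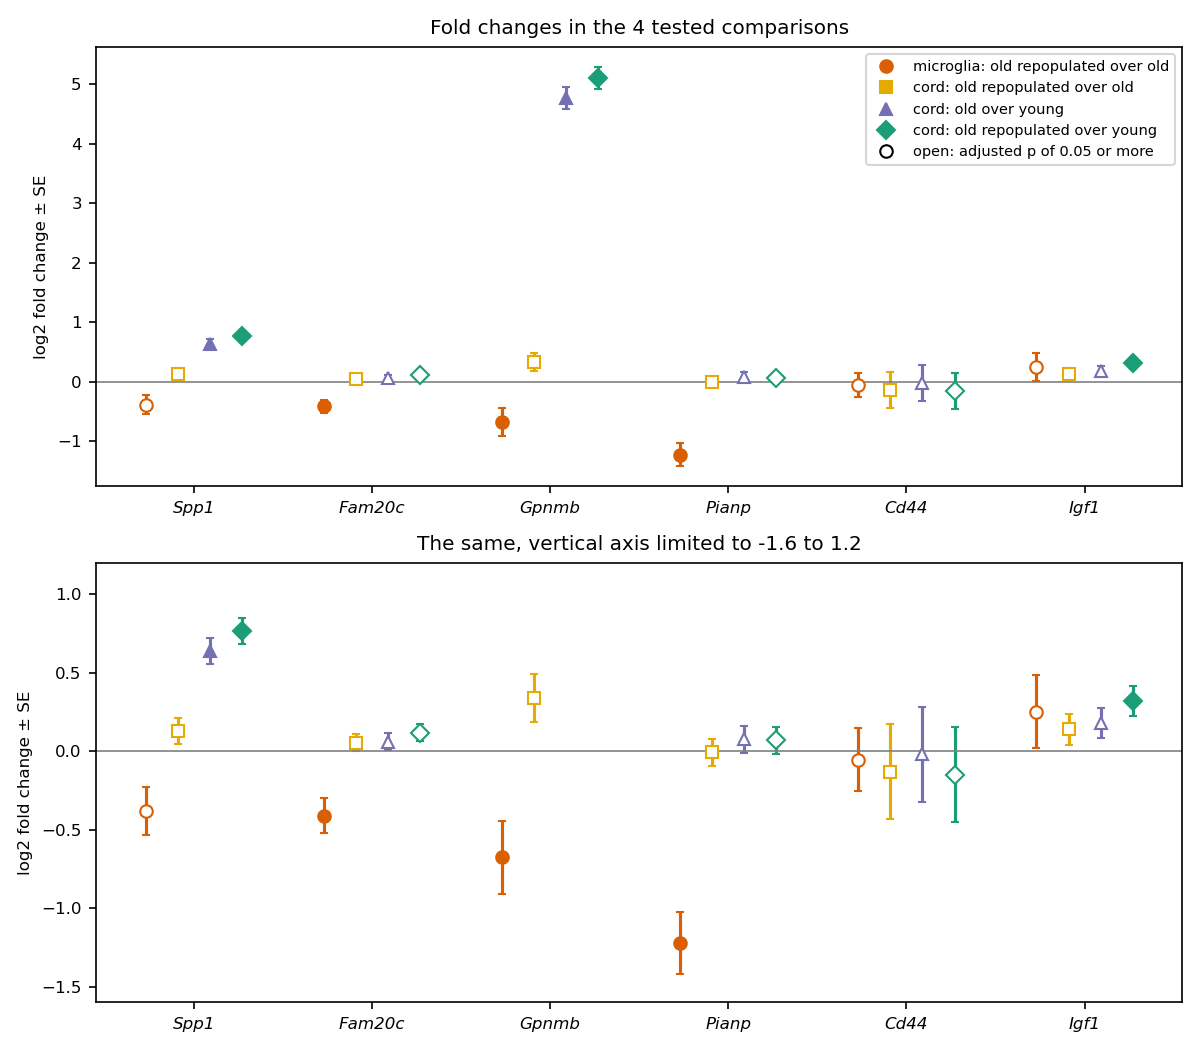
Log2 fold changes (points) with standard errors (bars) of the 6 genes in microglia, old repopulated over old, and in cord, old repopulated over old, old over young and old repopulated over young, where filled points have an adjusted p under 0.05 and the lower panel repeats the upper on a narrower axis. In microglia the points of Pianp, Fam20c and Gpnmb are filled and lie below 0, while the open points of Spp1 (-0.38) and Cd44 (-0.05) also lie below 0. Gpnmb stands at 4.77 and 5.10 over young in cord, and no filled point appears for cord, old repopulated over old.

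Whole spinal cord gave other libraries than those that chose the genes, although its results were also known when the genes were named. The labels do not tell whether cord and microglia came from the same mice. In cord, Gpnmb and Spp1 were higher in both old groups than in young, and Fam20c, Pianp and Cd44 were not called. Gpnmb had a lowest, median and highest level of 109.5, 167 and 210.0 CPM in old repopulated, 80.4, 127 and 174 CPM in old and 3.23, 4.42 and 6.50 CPM in young cord. Every old and old repopulated library lay far above the young range. The log2 fold change was 5.10 for old repopulated over young (SE 0.19, 34.4-fold, edgeR adjusted p = 1.67e-15) and 4.77 for old over young (SE 0.18, 27.2-fold, edgeR adjusted p = 6.1e-15).

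Spp1 had 274.5, 339 and 408.7 CPM as its lowest, median and highest level in old repopulated, 249, 311 and 339 CPM in old and 169, 198 and 229 CPM in young cord. Both older groups again lay wholly above young cord. The log2 fold change was 0.77 for old repopulated over young (SE 0.08, 1.70-fold, edgeR adjusted p = 2.38e-07) and 0.64 for old over young (SE 0.08, edgeR adjusted p = 5.64e-06). Over all cord genes, 7.28% were called higher and 2.78% lower in old repopulated than in young cord, and 4.88% higher and 1.26% lower in old than in young. Libraries lay wholly above young for 2.96% and 2.45% of genes and wholly below for 0.651% and 0.608%. Gpnmb and Spp1 were the 2 of 6 members called higher in old over young cord. In old repopulated over young cord Igf1 was also called, at 15.3 ± 2.55 CPM in old repopulated and 12.2 ± 1.03 CPM in young cord (log2 fold change 0.32, SE 0.10, edgeR adjusted p = 0.0335). The Igf1 ranges overlapped, and 6 of the 16 fits without a library ended its call.

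Fam20c, Pianp and Cd44 were not called in any cord comparison. Fam20c averaged 55.1 ± 6.45 CPM in old repopulated, 53.0 ± 1.80 CPM in old and 50.8 ± 2.21 CPM in young cord. Its highest library, old repopulated replicate 6 at 69.96 CPM, lay far from the others, and without it the log2 fold change over young cord was 0.07 in place of 0.12. Pianp averaged 71.3 ± 7.46 CPM in old repopulated, 71.6 ± 6.55 CPM in old and 68.0 ± 10.7 CPM in young cord, with log2 fold changes over young of 0.07 (SE 0.09) and 0.08 (SE 0.09). Cd44 averaged 50.4 ± 17.4 CPM in old repopulated, 55.2 ± 19.2 CPM in old and 55.9 ± 33.4 CPM in young cord, and its young libraries alone spanned 18.0 to 116 CPM.

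Between old repopulated and old cord edgeR called none of the 6 genes (0 called, 1 with an unadjusted p under 0.05, and 0 in each of 26 alternatives, DESeq2 and limma included), in a comparison where 0.148% of all genes were called and 0.0493% had old repopulated libraries wholly above old ones. Gpnmb came nearest, with a log2 fold change of 0.34 (SE 0.15, edgeR adjusted p = 0.681). For Spp1 it was 0.13 (SE 0.08), for Fam20c 0.06 (SE 0.05), for Pianp -0.01 (SE 0.09), for Cd44 -0.13 (SE 0.30) and for Igf1 0.14 (SE 0.10). Without old repopulated replicate 6 the log2 fold changes over old were 0.09 for Spp1, -0.05 for Pianp, -0.05 for Cd44, 0.34 for Gpnmb and 0.11 for Igf1, and that of Fam20c was 1e-06, with none called (edgeR adjusted p = 1 for each). Without it the log2 fold changes over young cord were 5.11 for Gpnmb, 0.73 for Spp1 and 0.30 for Igf1, each still called by edgeR.

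Whether repopulation moved a gene differently in the 2 tissues was tested as the difference of the log2 fold changes of old repopulated over old, cord minus microglia, over all 48 libraries and 19110 genes, with the libraries of the tissues taken as separate samples. This difference was 1.24 for Pianp (SE 0.21, edgeR adjusted p = 9.78e-05), 1.05 for Gpnmb (SE 0.30, edgeR adjusted p = 0.0179) and 0.49 for Fam20c (SE 0.12, edgeR adjusted p = 0.00817). Each of these genes was lower after repopulation in microglia and was not called in cord. The old microglia libraries also entered the comparison that chose the genes, which can favor a fall in microglia. By CPM, the median microglial marker sum of cord was 0.996% of that of sorted microglia in old repopulated and 0.886% in old libraries. A fall confined to microglia could therefore go unseen in whole cord. The difference does not show that microglia of brain and cord responded differently. For Spp1 the difference was 0.55 (SE 0.20, edgeR adjusted p = 0.0668), and 0.66 under total-count scaling (edgeR adjusted p = 0.0216). For Cd44 and Igf1 it was -0.02 (SE 0.39) and -0.07 (SE 0.28).

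The markers of the cells that could carry these transcripts in cord are given beside Gpnmb and Spp1, and their part in the age differences was not tested. The microglial sum in cord ran from 408.6 to 552 CPM in old repopulated, 360.4 to 454 CPM in old and 255.5 to 341 CPM in young libraries. Its ratio of medians was 1.65 for old repopulated over young and 1.40 for old over young, beside 34.4-fold and 27.2-fold for Gpnmb. In cord 7 and 5 of the 10 microglial markers were called higher in these comparisons, beside 7.28% and 4.88% of all genes. Within sorted microglia 8 and 10 of the same 10 were called lower than in young, beside 16.5% and 10.7% of all genes. The cord sum therefore does not measure the number of microglia alone. Medians of the border-associated macrophage sum, led by Stab1, were 97.5, 93.9 and 88.5 CPM in old repopulated, old and young cord. The list did not move as the sum did. Over its 9 tested markers the median log2 fold change was -0.25 for old repopulated and -0.32 for old over young cord. Of these 9, 1 was called higher and 2 lower in old repopulated over young, and 1 higher and 0 lower in old over young. The 8 melanocyte markers, of cells known to be rich in Gpnmb, summed to at most 3.68, 2.86 and 8.03 CPM in the 3 groups. Osteoclast markers, led by Mmp9, summed to a median of 31.2, 34.4 and 24.7 CPM, and the 6 markers of bone-forming cells, led by Dmp1, to 9.70, 10.9 and 7.96 CPM. For the motor neuron list, led by Prph, the medians were 352, 369 and 418.5 CPM.

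Per gene length, the level of Gpnmb was higher in whole cord than in microglia sorted from brain. It averaged 116 ± 32.9 TPM in old repopulated cord and 98.6 ± 25.5 TPM in old cord, against 28.9 ± 7.56 TPM in old microglia, 15.2 ± 3.40 TPM in old repopulated microglia, 3.55 ± 0.875 TPM in young cord and 0.562 ± 0.389 TPM in young microglia. The lowest old cord library (59.7 TPM) was above the highest microglia library of any group (42.5 TPM). In CPM, scaled within each tissue, the median microglial marker sum of old cord was 0.886% of that of old sorted microglia. Spp1 averaged 545.5 ± 102 TPM in old repopulated cord, 541 ± 60.0 TPM in old cord and 524 ± 94.3 TPM in old microglia, whose ranges overlapped. It averaged 341 ± 34.7 TPM in young cord and 337 ± 58.3 TPM in old repopulated microglia, whose ranges also overlapped. Young microglia came last, at 8.76 ± 3.26 TPM, with no library above 12.4 TPM. The ratio of Spp1 to Gpnmb in TPM was 22.3 in old repopulated, 18.2 in old and 15.6 in young microglia, and 4.69 in old repopulated, 5.49 in old and 96.0 in young cord.

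Pianp had, in TPM, its higher levels in cord, with 68.7 ± 10.4, 74.8 ± 6.66 and 69.7 ± 10.6 TPM in old repopulated, old and young cord, all overlapping. It then had 21.5 ± 4.48 TPM in old, 7.74 ± 2.46 TPM in old repopulated and 0.901 ± 0.322 TPM in young microglia, none overlapping. Fam20c was highest in old microglia (44.8 ± 7.71 TPM), whose range overlapped those of old repopulated, old and young cord (38.0 ± 4.81, 39.8 ± 1.73 and 37.4 ± 1.37 TPM). It came next in old repopulated microglia (28.2 ± 4.75 TPM), whose range met those of old microglia and old repopulated cord, and last in young microglia (7.12 ± 1.06 TPM), below all others. The overlap of old repopulated microglia and cord rested on cord replicate 6 (27.1 TPM). The next lowest old repopulated cord library had 37.1 TPM, and no old repopulated microglia library was above 33.8 TPM. Cd44 stood between 19.7 and 27.8 TPM on average in 5 of the groups, with overlapping ranges, and at 4.40 ± 1.92 TPM in young microglia, a range that still met that of old repopulated cord. This overlap too rested on cord replicate 6 (7.70 TPM), below the highest young microglia library (8.10 TPM). The next lowest old repopulated cord library had 15.6 TPM. Igf1 was low per length in every group, at 5.80 ± 1.80 and 5.87 ± 0.861 TPM in old repopulated and old microglia. It had 4.79 ± 1.07, 4.71 ± 0.708 and 4.08 ± 0.380 TPM in old repopulated, old and young cord and 1.30 ± 0.605 TPM in young microglia. These levels were not tested between tissues. By mean TPM, 5 of the 6 genes were higher in cord than in microglia in old repopulated mice, 4 in old and 6 in young, and by CPM, scaled within each tissue, 3, 2 and 6. The same share over all genes was not computed, so nothing is read from these counts.

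On log2 CPM, within the 8 libraries of a cord group, Cd44 was lower where Pianp was higher. Their Pearson r was -0.84 in old repopulated (rho = -0.93), -0.92 in old (rho = -0.90) and -0.87 in young cord (rho = -0.90), with exact permutation p-values, adjusted over 90 relations between members in 6 groups, of 0.029, 0.0379 and 0.0508. Without the 2 libraries farthest from the Pianp median, r was -0.93, -0.78 and -0.88. On log2(TPM + 0.1) the relation turned to r = 0.55 in old repopulated cord (rho = -0.31, adjusted exact p = 0.399), and was -0.97 in old and -0.85 in young cord (adjusted exact p = 0.01 and 0.0589). Without 2 libraries r was -0.63 in old repopulated cord, where replicate 6 had the lowest TPM of each of the 6 genes. On that scale Spp1 and Gpnmb passed in old repopulated cord (r = 0.95, adjusted exact p = 0.014, 0.86 without 2 libraries). So did Gpnmb and Igf1 (r = 0.91, adjusted exact p = 0.0398, 0.79 without 2). Replicate 6 was the lowest point of each of these 3 genes there. On log2 CPM r was 0.76 for each pair, not past the threshold. Of the 90 relations 6 had an adjusted exact p under 0.05 for r and 0 for rho (lowest 0.0815, 16 with an unadjusted p under 0.05 for r).

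Both genes varied with marker sums of the cord library. Cd44 was higher where the summed motor neuron markers were higher, in old repopulated (r = 0.92, adjusted exact p = 0.0254, 0.95 without 2 libraries), old (r = 0.96, adjusted exact p = 0.00268, 0.93 without 2) and young cord (r = 0.99, adjusted exact p = 0.00402, 0.98 without 2). It also rose with the summed markers of neurons in general, in old (r = 0.84, adjusted exact p = 0.0421) and young cord (r = 0.97, adjusted exact p = 0.00268). In old repopulated cord that relation did not pass (r = 0.72, adjusted exact p = 0.156). With the microglial sum Cd44 had r = -0.93 in old repopulated, -0.76 in old and -0.93 in young cord (adjusted exact p = 0.0281, 0.127 and 0.0107). In young replicate 1 Cd44 stood at 116 CPM beside a motor neuron sum of 901 CPM, and in young replicate 5 it stood at 18.0 CPM beside 162 CPM. Pianp was higher where the oligodendrocyte sum, led by Mbp, was higher, in old repopulated (r = 0.87, adjusted exact p = 0.0107, 0.75 without 2 libraries), old (r = 0.97, adjusted exact p = 0.00268, 0.95 without 2) and young cord (r = 0.94, adjusted exact p = 0.00774, 0.75 without 2). With the motor neuron sum Pianp had r = -0.6 in old repopulated, -0.89 in old and -0.87 in young cord (adjusted exact p = 0.265, 0.0143 and 0.0281). With the general neuron sum its r was -0.3, -0.7 and -0.86 (adjusted exact p = 0.613, 0.17 and 0.0306). Cd44 ran against the oligodendrocyte sum, with r = -0.81 in old repopulated, -0.95 in old and -0.95 in young cord (adjusted exact p = 0.00402, 0.00651 and 0.00402, and -0.98, -0.88 and -0.87 without 2 libraries). The relations of 6 marker lists with the 6 genes in 3 cord groups were added after the marker sums had been seen, and 26 of all 108 had an adjusted exact p under 0.05 for r (13 for rho). Fam20c varied with the oligodendrocyte sum in old repopulated cord (r = 0.97, rho = 0.81, adjusted exact p = 0.0187, 0.85 without 2 libraries, replicate 6 among the points). With the members on log2(TPM + 0.1), 2 of these relations in old repopulated cord turned and lost their call, Pianp with the oligodendrocyte sum (r = -0.73, rho = 0.24, adjusted exact p = 0.293) and Fam20c with it (r = -0.77, rho = 0.05, adjusted exact p = 0.293). The relations of the same pair of genes with the microglial sum there also turned, to r = -0.34 for Pianp and -0.36 for Fam20c, beside 0.79 and 0.81 on log2 CPM. On log2(TPM + 0.1) without the 2 libraries farthest from the median, r with the oligodendrocyte sum was 0.84 for Pianp and 0.83 for Fam20c. With the microglial sum it was then 0.73 for Pianp and 0.85 for Fam20c. On that scale Cd44 with the motor neuron sum also lost its call in old repopulated cord (r = 0.73, adjusted exact p = 0.14). Cd44 with the general neuron sum lost its call in old cord (r = 0.82, adjusted exact p = 0.0705). The other calls of Cd44 and Pianp with marker sums given for old and young cord were kept.

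**Figure D3:**
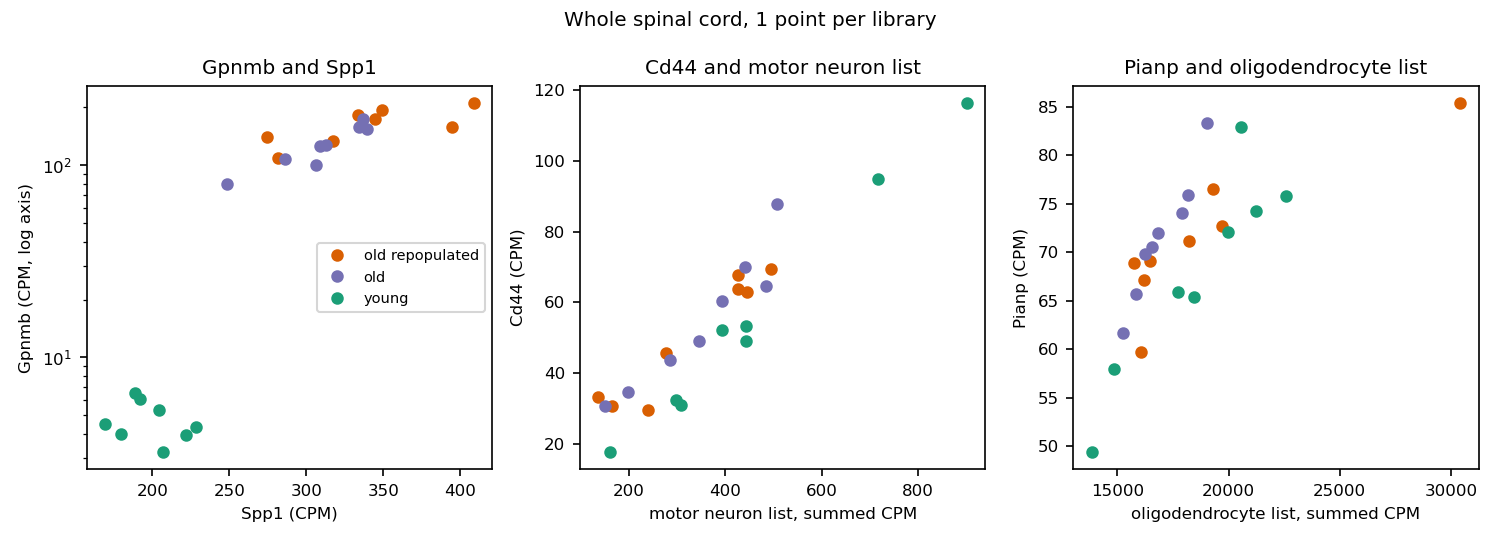
Gpnmb against Spp1 (left, both CPM, vertical log axis), Cd44 against the summed CPM of the motor neuron markers (middle) and Pianp against the summed CPM of the oligodendrocyte markers (right), 1 point per cord library, colored by group. Cd44 runs from 18.0 to 116 CPM along the motor neuron sum in young cord, and the old repopulated point at 30420 CPM on the right is replicate 6.

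Some of the relations among Spp1, Gpnmb and Igf1 passed the threshold in the older cords. Spp1 and Gpnmb had r = 0.93 in old cord (rho = 0.90, adjusted exact p = 0.0379, 0.88 without 2 libraries). Gpnmb and Igf1 had r = 0.90 there (rho = 0.88, adjusted exact p = 0.0469, 0.72 without 2), and Spp1 and Igf1 had r = 0.92 in old repopulated cord (rho = 0.93, adjusted exact p = 0.0435, 0.80 without 2). Spp1 and Igf1 in old cord did not pass (r = 0.82, adjusted exact p = 0.105). Neither did the other pairs in old repopulated cord (r = 0.76, adjusted exact p = 0.181 for each). In young cord r was -0.26 for Spp1 and Gpnmb, 0.15 for Spp1 and Igf1 and 0.55 for Gpnmb and Igf1, none called. In old cord the 3 genes also varied with the border-associated macrophage sum, led by Stab1 (r = 0.91 for Spp1, 0.91 for Gpnmb and 0.95 for Igf1, adjusted exact p = 0.0143, 0.0164 and 0.00737, and 0.78, 0.72 and 0.87 without 2 libraries). In old repopulated cord the same relations had r = 0.32, 0.51 and 0.53 (adjusted exact p = 0.598, 0.367 and 0.347), and 0.80, 0.72 and 0.87 on log2(TPM + 0.1) (adjusted exact p = 0.0912, 0.162 and 0.0355). With the microglial sum, Gpnmb had r = 0.38 in old repopulated, 0.49 in old and -0.61 in young cord (0.24, 0.44 and -0.95 without 2 libraries), with adjusted exact p of 0.521, 0.375 and 0.24. These values are side by side and the differences between them were not tested.

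In sorted microglia only Cd44 and Igf1 in old repopulated libraries had an adjusted exact p under 0.05 (r = 0.86, rho = 0.69, adjusted exact p = 0.0469), and r was 0.65 without the 2 libraries farthest from the Cd44 median. On log2(TPM + 0.1) this call ended (r = 0.83, adjusted exact p = 0.0597), and Fam20c and Pianp in old repopulated microglia passed for rho (rho = 0.95, r = 0.90, adjusted exact p = 0.0257 for rho). Old repopulated replicate 5 held the highest Cd44. Spp1 and Gpnmb had no such p in any microglia group.

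The receptors and processing enzymes of the 6 genes were read from lists of 68 partner genes, of which 51 passed the filter in microglia and 60 in cord. For old repopulated over old microglia 9 partners were higher and 10 lower, with a median log2 fold change of -0.22 beside -0.04 over all genes, 16.2% of which were called. Among the enzymes that cut or modify osteopontin, 4 of 5 tested were lower and 1 higher. Mmp12, the macrophage elastase, averaged 7.08 ± 4.02 CPM in old repopulated and 38.0 ± 7.92 CPM in old microglia (log2 fold change -2.42, SE 0.33, edgeR adjusted p = 2.28e-06). Mmp9, a gelatinase of neutrophils and macrophages, averaged 64.3 ± 25.0 CPM in old repopulated and 169.9 ± 69.4 CPM in old microglia (-1.40, SE 0.22, edgeR adjusted p = 2.89e-05). In each microglia group the library with the most Mmp9 also had the highest neutrophil marker sum (old repopulated replicate 3, old replicate 8, young replicate 1). The part of neutrophils in the Mmp9 levels was not tested. Plau fell by 0.22 on the log2 scale and Tgm2 by 0.22, calls that ended in 10 and 12 of 16 fits without a library. Acp5, the phosphatase that removes phosphate from osteopontin, was the 1 that rose (3.57, SE 0.76, edgeR adjusted p = 0.00112). Its level was 1.77 to 169 CPM in old repopulated and 0 to 8.33 CPM in old microglia, the highest being replicate 5, and the change was as low as 2.26 with a library left out.

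Of the 8 tested integrin chains that bind osteopontin, Itgb5 (0.43, SE 0.06, edgeR adjusted p = 1.34e-06) and Itgb1 (0.24, SE 0.07, edgeR adjusted p = 0.00977) were higher in old repopulated than in old microglia. Itgb1 lost its call with total-count scaling (0.07) and turned to -0.01 on log2(TPM + 1). Itgb5 averaged 4115 ± 145 CPM in old repopulated and 3060 ± 226 CPM in old microglia, without overlap. Of the 7 genes around Gpnmb, its receptor Sdc4 was lower (-1.07, SE 0.12, edgeR adjusted p = 2e-07), at 16.7 ± 3.63 CPM in old repopulated and 35.0 ± 6.24 CPM in old microglia. Its sheddase Adam10 was higher (0.39, SE 0.07, edgeR adjusted p = 0.000306), a call that ended on log2(TPM + 1). Its regulators Mitf, Tfeb, Tfe3 and Tfec were not called. Among the 5 Pianp receptors the inhibitory Pilra was higher (1.06, SE 0.19, edgeR adjusted p = 0.000138) and its activating counterpart Pilrb2 lower (-1.80, SE 0.43, edgeR adjusted p = 0.00353), with a level of only 2.07 ± 0.720 CPM in old repopulated and 7.23 ± 4.97 CPM in old microglia. Pilra, Pilrb1 and Pilrb2 are close copies whose reads may be split between them.

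Around Cd44 and Igf1, the Cd44 partner Cd74, the invariant chain and receptor for macrophage migration inhibitory factor, was lower (-1.91, SE 0.24, edgeR adjusted p = 7.05e-07), at 549 ± 263 CPM in old repopulated and 2069 ± 1010 CPM in old microglia, without overlap. The linker Ezr was lower (-0.52, a call that ended in 11 of 16 fits without a library) and the sheddase Adam17 higher (0.39, a call that ended on log2(TPM + 1)). Of 12 tested IGF genes 2 were higher and 2 lower, among them the binding protein Igfbp4 (0.87, SE 0.08, edgeR adjusted p = 2.06e-09), at 204 ± 8.87 CPM in old repopulated and 111.5 ± 10.1 CPM in old microglia, without overlap. The receptor Igf1r was lower (-0.54, SE 0.13, edgeR adjusted p = 0.0031). Irs2, an adaptor of the receptor, was higher (0.35, a call that ended with total-count scaling and on log2(TPM + 1)) and Igfbp7 lower (-1.34, a call that ended in 6 of 16 fits without a library). The Golgi kinase list held 1 call of 5, Fam20b (0.37), which ended with total-count scaling and on log2(TPM + 1).

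**Figure D4:**
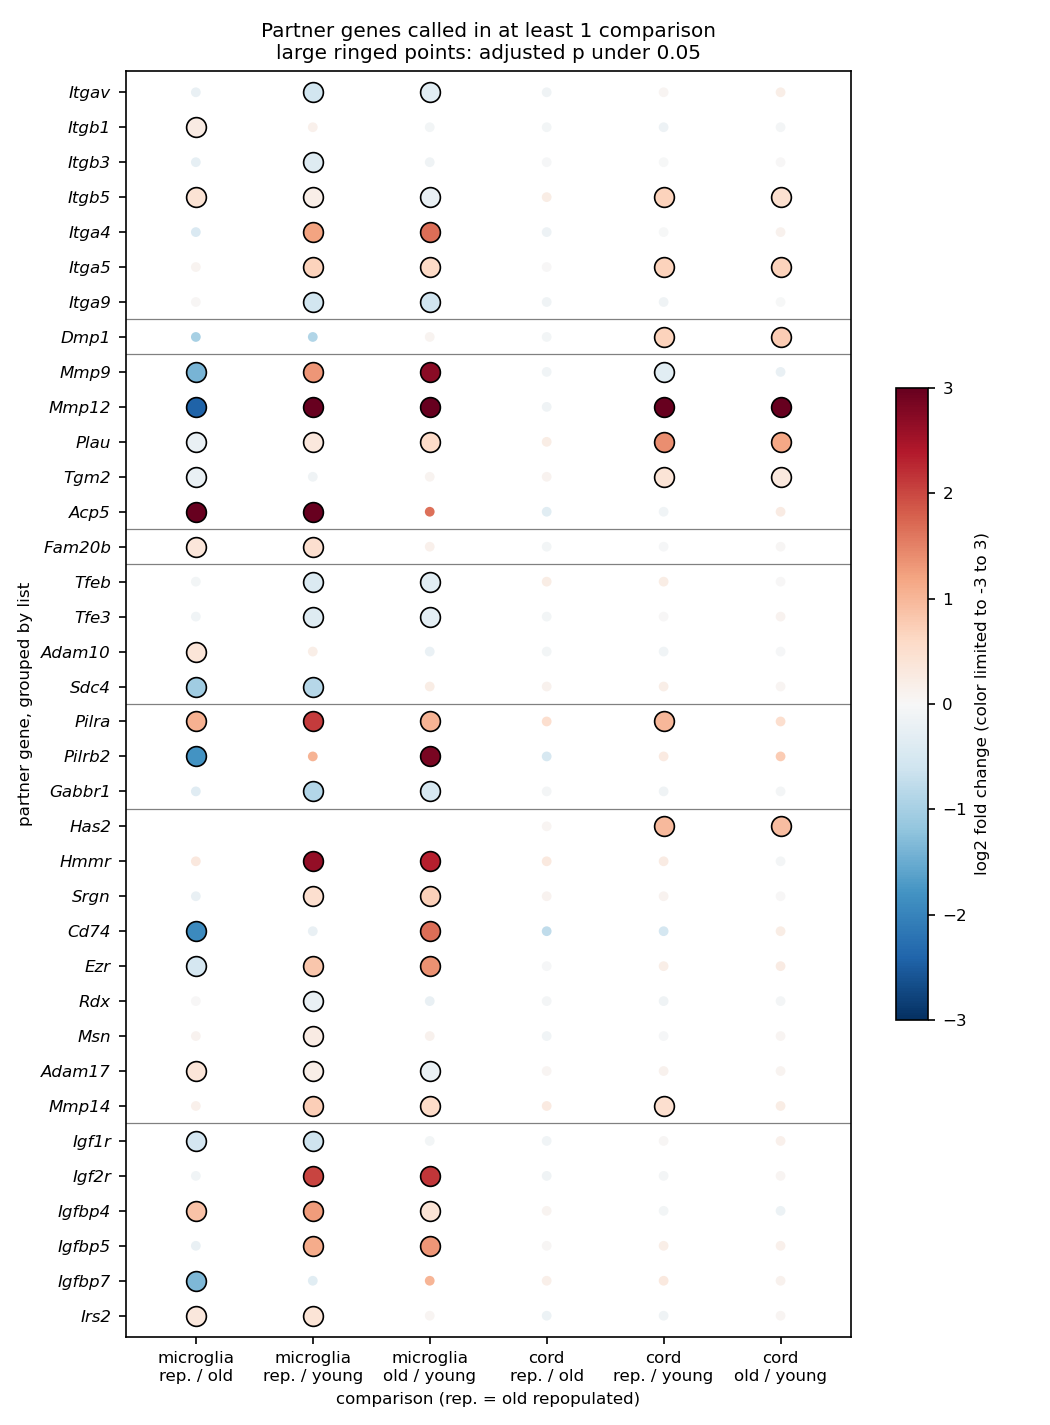
Log2 fold changes (color, limited to -3 to 3) of the partner genes called in at least 1 comparison, with a column per comparison and a row per gene grouped by list, where large ringed points have an adjusted p under 0.05 and genes that did not pass the filter have no point. Mmp12, Mmp9, Sdc4, Pilrb2 and Cd74 are lower in old repopulated than in old microglia, and no point is ringed for old repopulated over old cord.

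Against young microglia, 19 partners were higher and 9 lower in old repopulated libraries, and 15 higher and 7 lower in old ones, where 32.7% and 21.7% of all genes were called. Their median log2 fold changes were 0.19 and 0.22 beside -0.06 and -0.01 over all genes. The partners are other genes than the 6, but the lists were drawn up with results of these libraries known. Mmp12 stood at 7.92-fold in old repopulated and 42.4-fold in old over young microglia and Mmp9 at 2.49-fold and 6.57-fold. Acp5, at 37.5-fold over young in old repopulated microglia (edgeR adjusted p = 8.42e-06), was not called in old over young. The endocytic IGF receptor Igf2r was higher in old repopulated (log2 fold change 2.04, SE 0.25) and in old microglia (2.15, SE 0.25, edgeR adjusted p = 7.99e-08). Pilra was higher in old repopulated (2.10, SE 0.20) and in old over young microglia (1.04, SE 0.19), while the Gpnmb regulators Tfe3 (-0.40 and -0.29) and Tfeb (-0.43 and -0.34) were lower. Among integrin chains Itga5 was higher (0.68 and 0.60) and Itga9 lower (-0.58 and -0.61), again in old repopulated and in old over young. Around Cd44, Srgn, a proteoglycan core that binds it, was higher (0.50 and 0.73), as were Ezr (0.84 and 1.36) and the sheddase Mmp14 (0.73 and 0.57), and Cd74 was higher in old over young (1.68). The binding protein Igfbp4 was higher as well (1.27 and 0.40), and the Pianp receptor subunit Gabbr1 was lower (-0.88 and -0.51). Pilrb2 was called higher in old over young (2.84). Itga4 was higher (1.21 and 1.68) and Itgav lower (-0.57 and -0.35), Igfbp5 was higher (1.12 and 1.33), and Plau was higher (0.35 and 0.57). On log2(TPM + 1) the calls of Itga4 and Plau ended for old repopulated over young, as did both of Igfbp5. Sdc4 (-0.85) was lower and Fam20b (0.51) higher in old repopulated over young, the call of Fam20b ending on log2(TPM + 1).

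In cord 9 partners were higher and 1 lower in old repopulated than in young libraries and 7 higher in old than in young, where 10.1% and 6.15% of all genes were called. The largest of these fold changes was that of Mmp12, at 7.07 ± 1.80 CPM in old repopulated, 7.72 ± 2.12 CPM in old and 0.0560 ± 0.0629 CPM in young cord, where the highest of 8 libraries had 0.184 CPM. Its fitted log2 fold change of 6.97 for old over young (SE 0.34, edgeR adjusted p = 8.33e-13) rests on very few young reads. Plau, which activates plasmin, was higher in old repopulated (log2 fold change 1.39, SE 0.15) and in old over young cord (1.16, SE 0.15, edgeR adjusted p = 4.84e-06), as were Itga5 (0.70 and 0.68) and Itgb5 (0.70 and 0.48). Dmp1, a relative of osteopontin in the SIBLING family of bone proteins, was higher (0.69 and 0.77), and so was the hyaluronan synthase Has2 (0.97 and 0.92), which makes the ligand of Cd44. Tgm2 (0.41 and 0.32) lost its call on log2(TPM + 1). In old repopulated over young cord alone, Pilra (1.27 ± 0.811 CPM in old repopulated and 0.626 ± 0.287 CPM in young cord) and Mmp14 (1.42-fold) were called higher and Mmp9 (log2 -0.34) lower, calls that ended in 8, 5 and 2 of 16 fits without a library. Replicate 6 was the highest old repopulated library for Pilra (3.06 CPM, median 0.919) and for Mmp14 (168 CPM, median 64.1). Without it the log2 fold change of Pilra was 0.73 (edgeR adjusted p = 0.0585, no longer called), that of Mmp14 was 0.26 in place of 0.50 (edgeR adjusted p = 0.00609) and that of Mmp9 was -0.37 (edgeR adjusted p = 0.01). For old repopulated over old cord edgeR called 0 of 60 partners (6 had an unadjusted p under 0.05, and limma on log2(TPM + 1) also called 0).

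The genes most like each member were those with the smallest root mean square difference of centred log2 CPM over the 24 libraries of a tissue, among 11617 genes in microglia and 14414 in cord. In microglia Spp1 was nearest to Ch25h (0.80), Lox (0.89) and Rxrg (0.998), and Gpnmb to Rxrg (1.06), Lox (1.11) and Ch25h (1.11), against 2.80 and 2.81 for a flat profile. Pianp was nearest to Pdcd1 (0.60), Itgax (0.68) and Hcar2 (0.72), and Fam20c to Lpl (0.31), Fgr (0.31) and Itgax (0.33). Among the genes nearest to Cd44 were Cybb (0.32) and Arhgap15 (0.38), and among those nearest to Igf1 were Plxnc1 (0.44) and Cybb (0.44).

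In cord Gpnmb was nearest to Itgax (0.60), Atp6v0d2 (0.62) and Cd200r4 (0.68), against 2.35 for a flat profile. Spp1 was nearest to Itgb5 (0.11), a chain of its own integrin receptors, Neat1 (0.12) and Parp3 (0.13), against 0.37 for a flat profile, and Cd44 to Prkcd (0.15), Slc9a9 (0.15) and Gda (0.17), against 0.62. Igf1 was nearest to Rhbdf1 (0.13), Fkbp9 (0.13) and Arhgap10 (0.13), Pianp to Ccdc85c (0.06), Dtx1 (0.06) and Chst1 (0.06) and Fam20c to M6pr (0.05), Spcs2 (0.05) and P4hb (0.06), against flat profiles at 0.22, 0.17 and 0.11. The 3 groups differ in these libraries, so that any gene with the same group differences comes out near.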

How the data were processed

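Polyadenylated RNA of sorted brain microglia and whole spinal cord was sequenced in 48 libraries, with 8 replicates in each of 6 groups taken from the labels. Per the labels' protocols, libraries were made with a TruSeq version 2 kit, which does not keep the strand, so reads of a gene and of an antisense partner cannot be told apart. The submitters' processing notes name GRCm38.p5 and STAR 2.5.2b without their roles, and a counting tool is not given in the sources used here. Gene counts, as deposited by the authors, are whole numbers and entered the tests unchanged. The deposited TPM equal counts over the deposited gene length, rescaled per library (largest difference 0.0005). The deposited FPKM were not used here.

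Counts were tested with edgeR 4.0.16 (R 4.3.3), TMM scaling, filterByExpr (minimum count 10, minimum total 15) and quasi-likelihood tests over the 24 libraries of a tissue, with Benjamini-Hochberg adjustment. Log2 CPM for correlations had a prior count of 1. Correlations used exact permutation tests, two-sided, within groups of 8 only, since the groups form clusters. They were repeated with the member on log2(TPM + 0.1). Alternatives were DESeq2 1.42.0 (size factors and Wald test), total-count scaling, no filter and a stricter one (1 CPM in 8 libraries), limma-voom with sample quality weights, limma 3.58.1 on log2(TPM + 0.1) and log2(TPM + 1), fits of 2 groups, a block for the replicate number, fits without each library, and fits without old microglia replicates 2 and 7, which stood apart in earlier work on these data. The test of the tissue difference and the cord marker relations were added after the data had been seen. No 2 libraries of a group were duplicates: across 168 pairs the chi-square statistic was at least 3.24 per gene, above counting noise. The labels give no batch. Steps were tested on simulated data.

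The members, the partner and marker lists and the naming rule were chosen with earlier results of these data known. Members are named in every comparison, partners by up to 4 called genes per list and comparison with the smallest adjusted p, and like genes by the 3 nearest with a mean of at least 1 CPM. Marker gene Trac was not found in the table. Some results under these rules are not reported here. Promoter windows are from RefSeq.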

Additional observations from a re-analysis of the deposited data

Results flagged for a closer look

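Within groups of 8 libraries, the level of Fam20c in old repopulated cord replicate 6 (69.96 CPM) lay farther from the nearest other library than an outlier test allows. Chance gives about 1 such result in 20 groups, and 36 groups were looked at.

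The response to repopulation, old repopulated over old, differed between the tissues for 3 genes, given as cord minus microglia on the log2 scale by edgeR over 48 libraries. It was 1.24 for Pianp, 1.05 for Gpnmb and 0.49 for Fam20c. In microglia Pianp, Gpnmb and Fam20c fell by 1.22, 0.68 and 0.41 on the log2 scale, and in cord their changes of -0.01, 0.34 and 0.06 were not called. The old microglia libraries also entered the comparison that chose the genes, which can favor such falls.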

How the results depend on the processing

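No fold change of the 6 genes that was called turned direction under an alternative run. On log2(TPM + 0.1), 5 called correlations in old repopulated cord did (Pianp and Fam20c with the oligodendrocyte and microglial sums, Pianp with Cd44). Without the 2 libraries farthest from the median these 5 kept their log2 CPM direction on that scale. Their r was 0.84 and 0.83 with the oligodendrocyte sum, 0.73 and 0.85 with the microglial sum, and -0.63 for Pianp with Cd44. In that group replicate 6 had the lowest TPM of each of the 6 genes. Pianp and Fam20c in microglia, old repopulated over old, were called in 27 of 27 alternatives (log2 -1.30 to -1.13 and -0.45 to -0.34 without each library), and Gpnmb and Spp1 in cord over young in 26 of 26. Gpnmb in microglia, old repopulated over old, lost its call with the DESeq2 Wald test (-0.68, adjusted p = 0.111) and without old replicates 2 and 7 (-0.68, adjusted p = 0.0762), and between -0.75 and -0.56 without each library (adjusted p 0.0372 to 0.12). Spp1 in that comparison gained a call with total-count scaling (-0.55), weighted limma-voom (-0.45), log2(TPM + 1) (-0.64), log2(TPM + 0.1) (-0.64) and 2 groups only (-0.38, edgeR adjusted p = 0.0343), was between -0.43 and -0.30 without each library, and its tissue difference did with total-count scaling (0.66). Igf1 in cord, old repopulated over young, lost its call with no filter (0.31), weighted limma-voom (0.26), log2(TPM + 1) (0.17) and log2(TPM + 0.1) (0.20), and was between 0.26 and 0.36 without each library. The replicate number as a block left Gpnmb at -0.63 (edgeR adjusted p = 0.0744) in microglia and Igf1 at 0.31 (edgeR adjusted p = 0.0528) in cord, both no longer called, and ended no other call of the 6 genes. Same-numbered libraries did not deviate together (correlations -0.585 to 0.51, with at most 4 of 8 over 0.1, and at most 2 of 8 closest to their own number), so the numbers are not read as pairs.

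Counts of all genes called moved over 1.5 times for old over young cord with weighted limma-voom (2430) and 2 groups (1844), beside 1123, for old repopulated over young cord with log2(TPM + 1) (1030), log2(TPM + 0.1) (1003) and 2 groups (1211), beside 1839, for old repopulated over old cord with DESeq2 (66), weighted limma-voom (53) and the TPM scales (13 and 12), and between 16 and 57 without a library, beside 27, and in microglia with the TPM scales, to 4779 and 4643 for old repopulated over old, beside 2336, and 7378 and 7478 for old repopulated over young, beside 4698. On these scales 10.4% of the first and 16.8% and 16.4% of the second were higher, beside 1301 of 2336 and 2321 of 4698. Members higher in cord were 2 in old and 3 in old repopulated mice by CPM, in place of 4 and 5 by TPM. The causes were not tested. Depth limits Gpnmb in young microglia, with 2 to 62 reads per library.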
